A study of Mus musculus with 9 samples.

Results

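The deep-layer neuron specification factors examined here are 9 transcription regulators, Tbr1, Bcl11a, Bcl11b, Fezf2, Sox5, Foxp1, Foxp2, Lmo3 and Zfpm2, chosen by name out of 22180 genes measured. All 9 had a row of the array carrying their symbol alone, and the row with the highest mean over all arrays was read. RNA came from the embryonic cortex of wild-type CD1 mice at E12/13, and each group held 3 arrays labelled as biological replicates. The groups were RNA precipitated with a rabbit antibody to Pum2, RNA precipitated with normal rabbit IgG, which measures the background of the method, and total input RNA taken with no antibody. The study's title places the work in the control of neuronal specification by a complex that represses translation, and the comparisons ask which transcripts a Pum2 antibody brings down beyond that background. Every animal was untreated and of one genotype. The labels give no detail of how many embryos were pooled.

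Deep-layer neurons of the cortex are its early-born excitatory neurons, and they send axons to the thalamus, the brainstem and the spinal cord. Their identities are set by transcription factors that repress one another. Fezf2 acts through Bcl11b, also called Ctip2, to specify neurons that project below the cerebrum, whereas Tbr1, with Sox5 and Zfpm2, favours neurons that project to the thalamus and holds the Fezf2 programme back. Pum2 is a Pumilio-family RNA-binding protein that binds mRNA, usually in its 3′ untranslated region, and lowers its translation or stability.

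Values are log2 signals made by the RMA method, and a difference of 1 on this scale is a factor of 2. The 3 arrays of a group correlated across genes with Pearson r between 0.994 and 0.996. The median over genes lay between 6.05 and 6.10 on every array, which follows from RMA, since it normalizes arrays to one another. Higher and lower are therefore relative to the other genes of an array. The amount of RNA that each antibody brought down is not given by these values. Each member had a mean above 6.08, the median over all genes. Of the markers of the labelled tissue, 7 of 7 measured for cortical precursors and 5 of 5 for young neurons were at or above that median. Among 7 markers of interneurons and the ganglionic eminence, 3 were at or above it, and among 5 of microglia 2 were. Markers of other cells reached it more often: 6 of 6 for endothelium and pericytes, 5 of 5 for meninges and 3 of 4 for Cajal-Retzius cells. The 1 red blood cell marker measured did too. Fewer cells of a type and less RNA per cell cannot be told apart in such bulk RNA.

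The 9 transcripts did not move together. Against IgG, Lmo3 and Tbr1 were higher in the Pum2 precipitate and Foxp2, Sox5, Bcl11b and Fezf2 were lower, with differences from -0.59 to 0.83 on the log2 scale. Bcl11a, Foxp1 and Zfpm2 did not pass the test. Calls below are limma's moderated test at an adjusted p under 0.05 over all 22180 genes. The 2 higher members of 9 stand beside 19.4% of all genes called higher, and the 4 lower members beside 11.4% called lower. The median difference of the members was -0.21, that of all genes 0.04, and that of genes at or above the median level 0.12. The arrays of both groups did not overlap for 8 of the 9 members, against 41.3% of all genes.

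**Figure D1:**
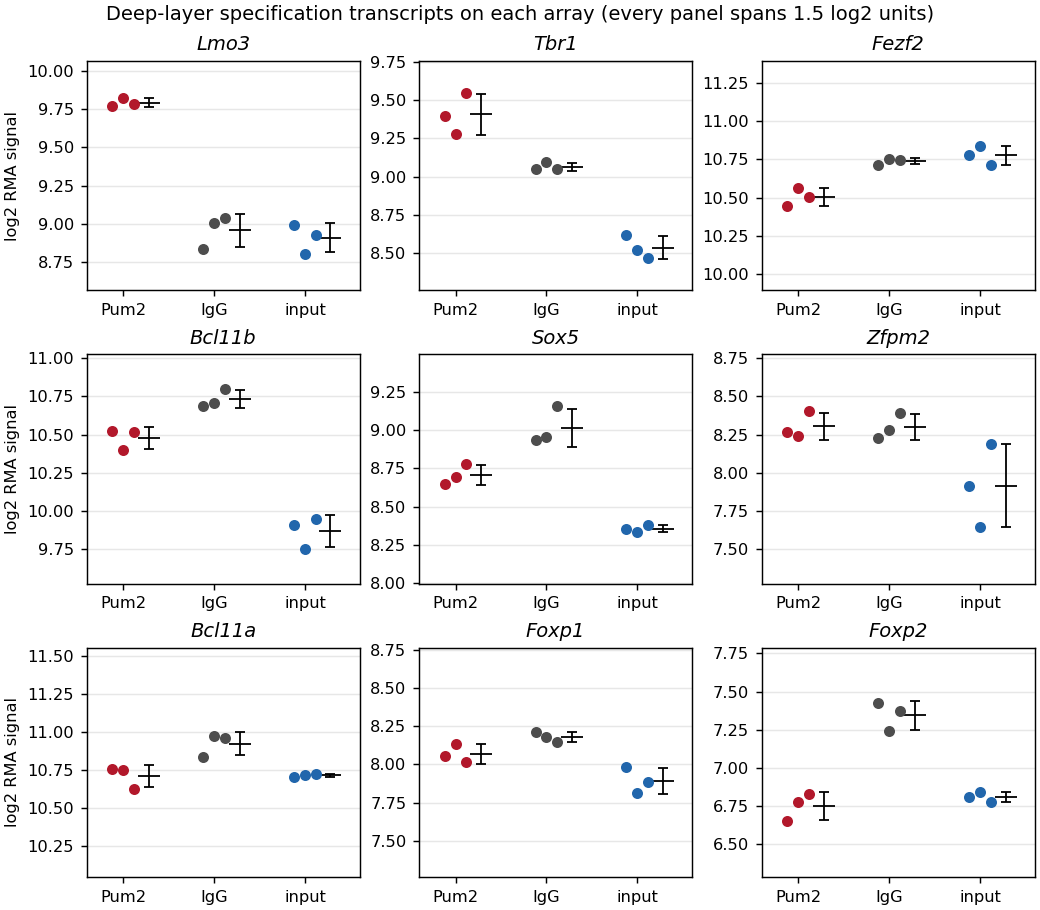
Log2 RMA signal (vertical axis) of each of the 9 transcripts on every array, with Pum2, IgG and input side by side; coloured points are arrays, and the black mark with its bar is the mean ± SD of 3 arrays. Lmo3 lies above 9.7 on every Pum2 array and below 9.1 on the other 6, while Foxp2 stands highest in IgG.

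Lmo3 encodes a LIM-only protein, which has no DNA-binding domain and joins other factors into complexes. Its signal was 9.77, 9.83 and 9.78 on the Pum2 arrays, against 8.83, 9.003 and 9.04 with IgG and 8.99, 8.81 and 8.93 in input. Every Pum2 array was above every other array, and the IgG and input arrays overlapped. The difference was 0.83 ± 0.08 over IgG (log2 ± SE, n = 3 each, 1.78-fold, limma adjusted p = 5.13e-05) and 0.88 ± 0.08 over input (adjusted p = 2.07e-05, 1.84-fold). In IgG over input it was 0.05, with a 95% interval from -0.13 to 0.23 (limma adjusted p = 0.743). Of all genes, 98.1% had a Pum2 over IgG difference at or below that of Lmo3.

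Tbr1, the T-box factor that defines neurons projecting to the thalamus, was highest with Pum2, next with IgG and lowest in input. Its signal was 9.40, 9.28 and 9.55 with Pum2, 9.05, 9.09 and 9.05 with IgG, and 8.62, 8.52 and 8.47 in input. No array of one group overlapped with another group. Over IgG the difference was 0.34 ± 0.08 (limma adjusted p = 0.0106, 1.27-fold), and IgG itself exceeded input by 0.53 ± 0.08 (adjusted p = 0.00201). The Pum2 over input difference, 0.87 ± 0.08 (adjusted p = 2.57e-05), thus spans a rise that nonspecific IgG also gave. When quantile normalization was run again the difference from IgG was 0.23 and did not pass (adjusted p = 0.0626).

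Lmo3 and Tbr1 were the members higher with Pum2 than in both controls, 2 of 9, where 14.2% of all genes were. Comparisons with IgG and with input share the Pum2 arrays, so they are not independent.

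Sox5, an SRY-box factor that controls the timing of deep-layer subtypes, took a different order, with IgG highest, Pum2 next and input lowest. It had 8.64, 8.69 and 8.78 with Pum2, against 8.94, 8.95 and 9.16 with IgG and 8.35, 8.33 and 8.38 in input. The groups did not overlap. The Pum2 precipitate was lower than IgG by a log2 difference of -0.31 ± 0.08 (limma adjusted p = 0.0145) and higher than input by 0.35 ± 0.08 (adjusted p = 0.00672). Without Pum2 replicate 1 the first of these was -0.28 and its call ended (adjusted p = 0.0567).

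Zfpm2, also called Fog2, is a zinc-finger cofactor of neurons that project to the thalamus. Its signal was 8.27, 8.24 and 8.40 with Pum2, 8.23, 8.28 and 8.39 with IgG, and 7.91, 7.64 and 8.19 in input. The Pum2 and IgG arrays covered nearly the same range, and the input arrays lay below both with a wide spread. The Pum2 over IgG difference was 0.01, with a 95% interval from -0.27 to 0.29 (limma adjusted p = 0.98). Zfpm2 exceeded input by 0.39 ± 0.13 with Pum2 (adjusted p = 0.0344) and by 0.38 ± 0.13 with IgG, which did not pass (adjusted p = 0.0612). The call over input ended without Input replicate 1 (0.39), Input replicate 2 (0.26), or Pum2 replicate 1, 2 or 3 (0.41, 0.42 and 0.34), while without Input replicate 3, at 0.52, the IgG over input difference passed (adjusted p = 0.0123).

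Fezf2, the zinc-finger factor at the head of the subcerebral programme, was the single member lower with Pum2 than in both controls, as were 7.69% of all genes. Its signal was 10.45, 10.56 and 10.51 with Pum2, 10.72, 10.75 and 10.75 with IgG, and 10.78, 10.84 and 10.72 in input. Every Pum2 array lay below the other 6, and IgG and input overlapped. The differences were -0.23 ± 0.07 from IgG (limma adjusted p = 0.0276, 1.18-fold lower) and -0.27 ± 0.07 from input (adjusted p = 0.0112, 1.21-fold lower). The call against IgG ended without IgG replicate 2 or 3 (-0.23 each) and without Pum2 replicate 1 (-0.21) or 3 (-0.23), whereas the call against input held under each of 17 alternatives. Among those, leaving out an IgG array could not alter the difference from input itself. Quantile normalization run again took the difference from IgG to -0.37 (adjusted p = 0.00253), and centring on the brighter genes to -0.33.

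Bcl11b, the zinc-finger repressor downstream of Fezf2, had the largest IgG over input difference of the 9, and 99.6% of all genes had a difference at or below it. It measured 10.52, 10.40 and 10.51 with Pum2, 10.69, 10.71 and 10.80 with IgG, and 9.91, 9.75 and 9.95 in input. As with Sox5, the groups were apart in the order IgG, Pum2, input. IgG exceeded input by 0.86 ± 0.08 (limma adjusted p = 1.75e-04, 1.82-fold), and Pum2 exceeded input by 0.61 ± 0.08 (adjusted p = 1.98e-04). Against IgG the Pum2 precipitate was lower, at -0.25 ± 0.08 (adjusted p = 0.0362). That last call did not survive the loss of any 1 of the 6 Pum2 and IgG arrays (-0.28 to -0.21), nor the adjustment of p over all features of the table (adjusted p = 0.0521). It was larger after quantile normalization, at -0.39 (adjusted p = 0.00357), and with arrays centred on the brighter genes, at -0.35.

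Bcl11a, the paralog of Bcl11b, measured 10.76, 10.75 and 10.63 with Pum2, 10.84, 10.97 and 10.96 with IgG, and 10.71, 10.72 and 10.73 in input. The IgG arrays were above all others, and Pum2 overlapped with input. None of its comparisons passed in the fit of all arrays and genes. The difference from IgG, -0.21 ± 0.07, lay at the threshold (limma adjusted p = 0.0502). It passed without IgG replicate 1 (-0.26), with quantile normalization run again (-0.33), with arrays centred on the brighter genes (-0.31), with brighter genes alone (adjusted p = 0.0203) and with an intensity trend and a robust prior (adjusted p = 0.0141). IgG over input, at 0.21 ± 0.07 (adjusted p = 0.0785), passed under 3 of these, brighter genes alone, the trend and quantile normalization (adjusted p = 0.0318, 0.0242 and 0.0333). A second row carrying the symbol was dim, with a mean of 5.44, and its Pum2 over IgG difference was 0.06 (adjusted p = 0.774 over all features). With the mean of both rows, Bcl11a differed from IgG by -0.08 and IgG from input by 0.05.

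The change of Bcl11a was set against that of Bcl11b on each array. The Bcl11a minus Bcl11b value averaged 0.23 ± 0.12 with Pum2, 0.19 ± 0.07 with IgG and 0.85 ± 0.10 in input (log2, SD, n = 3). Both precipitates were thus apart from input on every array, by -0.61 with Pum2 and -0.65 with IgG. The 2-sided exact permutation p was 0.1 for each, the smallest that 3 against 3 arrays can give (0.12 after adjustment over the 6 paralog comparisons). Between Pum2 and IgG the pair differed by 0.04 (exact permutation p = 0.7).

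**Figure D2:**
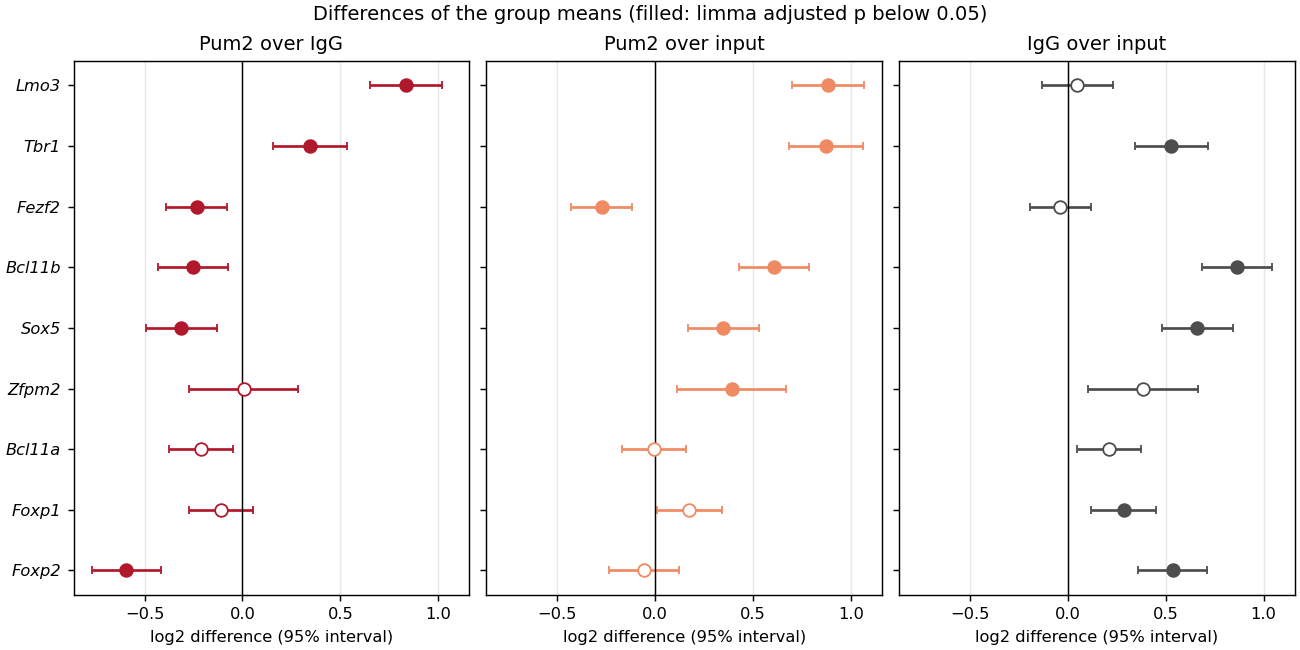
Log2 difference of group means (horizontal axis) for the 9 transcripts in each of the 3 comparisons; bars are 95% intervals from limma, and filled points passed at an adjusted p below 0.05. Lmo3 is near 0 in IgG over input and at 0.83 and 0.88 in the Pum2 comparisons, whereas Bcl11b, Sox5 and Foxp2 lie right of 0 in IgG over input and left of 0 in Pum2 over IgG.

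The forkhead factors Foxp1 and Foxp2 act as repressors, and Foxp2 marks neurons projecting to the thalamus in the mature cortex. Foxp2 measured 6.65, 6.78 and 6.83 with Pum2, against 7.42, 7.24 and 7.37 with IgG and 6.81, 6.84 and 6.77 in input. The IgG arrays stood alone, and Pum2 overlapped with input. The difference was -0.59 ± 0.08 from IgG (limma adjusted p = 3.11e-04, 1.51-fold lower) and -0.06 from input, with a 95% interval from -0.23 to 0.12 (adjusted p = 0.64). IgG exceeded input by 0.54 ± 0.08 (adjusted p = 0.00135).

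Foxp1 was also highest with IgG, with smaller steps, at 8.05, 8.14 and 8.01 with Pum2, 8.21, 8.18 and 8.15 with IgG, and 7.98, 7.81 and 7.89 in input. The Pum2 arrays fell between the other groups without overlap. IgG exceeded input by 0.28 ± 0.07 (limma adjusted p = 0.0232), a call that ended without Input replicate 2 (0.24) or 3 (0.28) and without IgG replicate 1 (0.27) or 2 (0.29). Pum2 differed from IgG by -0.11 (95% interval from -0.28 to 0.05, adjusted p = 0.313) and from input by 0.17 (0.01 to 0.34, adjusted p = 0.0981), which passed with brighter genes alone (adjusted p = 0.0467). With arrays centred on the brighter genes these were -0.20 and 0.10, neither of them called. The Foxp1 minus Foxp2 value was 1.32 ± 0.12 with Pum2, 0.83 ± 0.09 with IgG and 1.09 ± 0.10 in input, with no overlap of arrays. Pum2 differed from IgG by 0.48 and from input by 0.23. IgG differed from input by -0.25 (exact permutation p = 0.1 for each, adjusted p = 0.12).

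Against input, 5 members were higher with Pum2 (Lmo3, Tbr1, Bcl11b, Zfpm2 and Sox5) and Fezf2 was lower. Of all genes, 21.6% were higher and 13.1% lower. The members' median was 0.35, that of all genes 0.07, and that of genes at or above the median level 0.12. The arrays did not overlap for 7 of 9 members, and for 45.3% of all genes.

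Nonspecific IgG over input gave nearly the same count. Bcl11b, Sox5, Foxp2, Tbr1 and Foxp1 were higher, 5 of 9, where 8.25% of all genes were. None was lower by limma's adjusted p, against 9.72% of all genes, and 0 were lower at an unadjusted p under 0.05. The median of the members was 0.38, that of all genes 0.02, and that of genes at or above the median level -0.01. Arrays were apart for 7 of 9 members and 32% of all genes. Bcl11b, Sox5, Foxp2 and Tbr1 each exceeded the differences of at least 97% of genes. With brighter genes alone, with an intensity trend and a robust prior, or with quantile normalization run again, Bcl11a and Zfpm2 passed as well, which made 7 of 9.

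Markers of other cells and of the labelled tissue moved too. Cajal-Retzius markers, 4 measured, had a mean level of 7.31 to 7.34 on the Pum2 arrays, against 6.61 to 6.80 with IgG and 6.50 to 6.70 in input. For 5 meningeal markers it was 8.01 to 8.15 with Pum2, 7.53 to 7.84 with IgG and 7.36 to 7.44 in input, and for 6 endothelial and pericyte markers 8.60 to 8.71 with Pum2, 8.15 to 8.39 with IgG and 8.12 to 8.19 in input. All 3 lists were thus highest with Pum2 on average, and they were not alone. Interneuron and ganglionic eminence markers were at 5.98 to 6.16 with Pum2, 5.77 to 5.90 with IgG and 5.75 to 5.84 in input. Microglial markers were at 5.96 to 6.04, 5.71 to 5.93 and 5.79 to 5.93 in the same order. Intermediate precursor markers were at 9.32 to 9.37, 9.17 to 9.23 and 9.01 to 9.04. The 1 red blood cell marker was lowest with Pum2 (9.59 to 9.96, IgG 9.96 to 10.23, input 9.98 to 10.26). Single markers differed. Of the 4 Cajal-Retzius markers, Calb2 (1.23, with a dim mean of 5.90 over all arrays) and Trp73 (0.83) were higher than IgG. Reln (0.18) and Lhx5 (0.16) were not called. In IgG over input Reln was higher (0.78) and Calb2 lower (-0.60). Of the 6 endothelial and pericyte markers, 3 were higher and 1 lower than IgG (all genes 19.4% and 11.4%). Over input 4 were higher and 1 lower (all genes 21.6% and 13.1%). The lower marker was Rgs5 in both (-0.71 and -0.51). Cortical precursor markers were also highest there on average, at 9.79 to 9.90 with Pum2, 9.39 to 9.50 with IgG and 9.53 to 9.57 in input. Of these 7, 4 were higher and 0 lower than IgG (0 also at an unadjusted p under 0.05; all genes 19.4% and 11.4%). Over input 5 were higher and 1, Hes5, was lower (-0.34), against 21.6% and 13.1% of all genes. The 5 young-neuron markers had mean levels of 10.32 to 10.40 with Pum2, 10.48 to 10.58 with IgG and 10.35 to 10.44 in input. Single markers went opposite ways. In Pum2 over IgG 0 were higher and 1, Neurod6, was lower (-0.76), against 19.4% and 11.4% of all genes. At an unadjusted p under 0.05, 1 was higher and 2 were lower. In IgG over input 2 were higher (Dcx, 0.48, and Neurod2, 0.32) and Stmn2 was lower (-0.46), against 8.25% and 9.72% of all genes. In Pum2 over input 2 were higher (Dcx, 0.47, and Tubb3, 0.33) and 2 lower (Neurod6, -0.56, and Stmn2, -0.47), against 21.6% and 13.1%. Dcx encodes a microtubule-binding protein of migrating neurons, and Stmn2 a regulator of microtubules. The part of these values in those of the members was not tested.

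**Figure D3:**
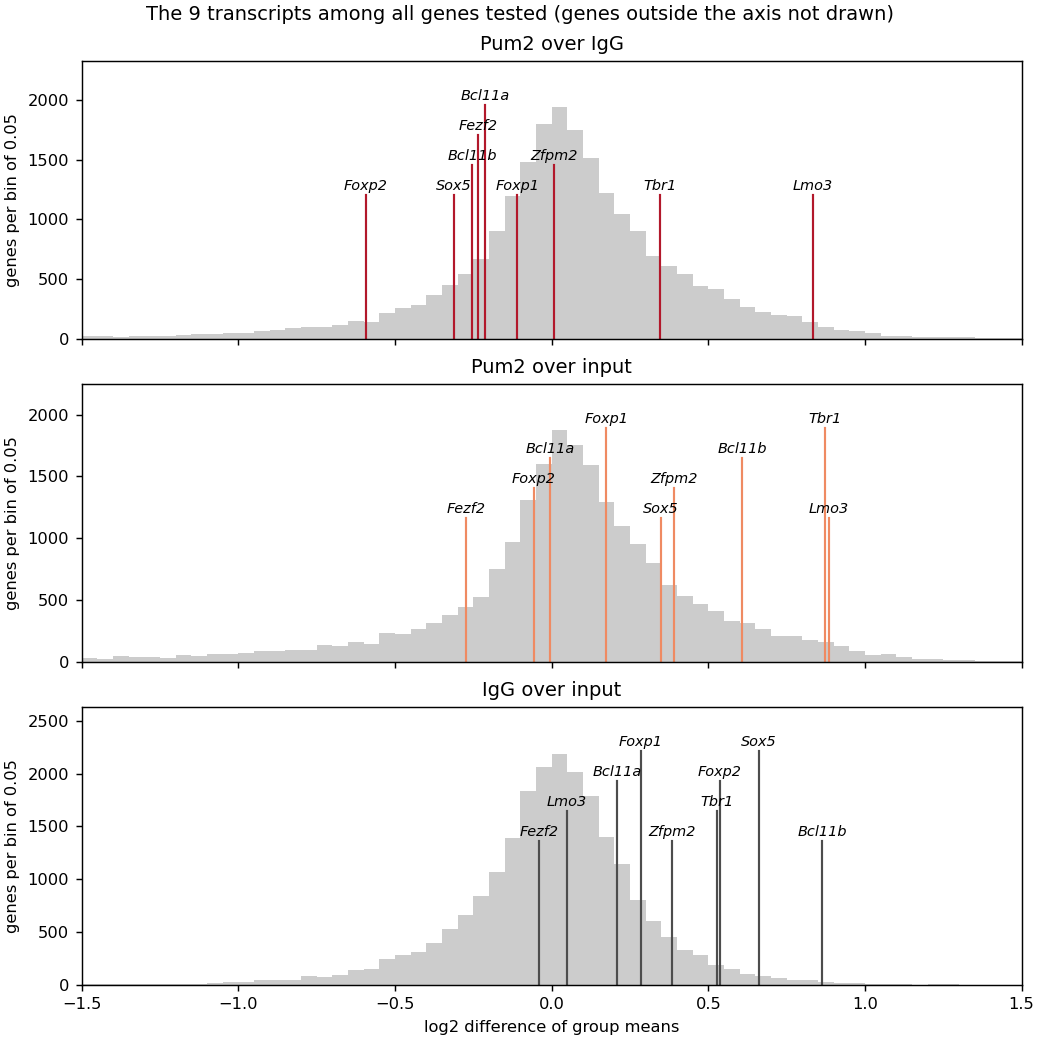
Number of genes (vertical axis) by log2 difference in bins of 0.05 (grey) in each of the 3 comparisons, with the 9 transcripts as labelled lines. In IgG over input, Bcl11b, at 0.86, and Sox5, at 0.66, lie in the upper tail, and in Pum2 over IgG the same transcripts lie left of 0 while Lmo3 is far right.

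Other genes of deep-layer and subplate neurons also went both ways. Of 15 measured, 4 were higher and 2 lower with Pum2 than with IgG, counts that stand beside 19.4% and 11.4% of all genes (median 0.01, all genes 0.04). Nxph4, a secreted neurexophilin of the subplate, was higher by 0.80 ± 0.09 (limma adjusted p = 1.25e-04), Foxo1, a forkhead factor of insulin signalling, by 0.55 ± 0.08 (adjusted p = 6.83e-04), and Tle4, a corepressor of neurons projecting to the thalamus, by 0.41 ± 0.10 (adjusted p = 0.0122). Pcp4, a calmodulin-binding peptide of subcerebral neurons, was lower at -0.88 ± 0.08 (adjusted p = 4.02e-05), the largest moderated t of the list. Against input 7 of the 15 were higher and 2 lower with Pum2 (all genes 21.6% and 13.1%; median 0.30), and 7 and 2 with IgG (all genes 8.25% and 9.72%; median 0.27). Nxph4 was lower than input with IgG, at -0.50 ± 0.09 (adjusted p = 0.00429).

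Close relatives of the members were measured in 11 cases, of which 4 were higher and 0 lower with Pum2 than with IgG (limma, 0 lower also at an unadjusted p under 0.05; all genes 19.4% and 11.4%; median 0.19). Foxp4, the forkhead relative of Foxp1 and Foxp2, averaged 9.46 with Pum2, 8.57 with IgG and 9.11 in input. It was 0.89 ± 0.07 higher than IgG (adjusted p = 1.70e-05), in the opposite direction to Foxp2, and 0.35 ± 0.07 higher than input (adjusted p = 0.00309). Lmo1 averaged 9.37 with Pum2, 8.31 with IgG and 8.85 in input, a rise over IgG of 1.06 ± 0.10 (adjusted p = 3.26e-05) beside the 0.83 of Lmo3. Both Foxp4 and Lmo1 were lower with IgG than in input, each by -0.54 (adjusted p = 7.61e-04 and 0.00354), whereas Foxp2 was higher with IgG than in input.

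Among the Sox relatives, Sox13 was higher than IgG by 0.69 ± 0.12 (limma adjusted p = 0.00187), while Sox5 was lower. Fezf1, the paralog of Fezf2, was likewise higher by 0.58 ± 0.13 (adjusted p = 0.00724), where Fezf2 was lower. Against input 6 of the 11 relatives were higher and 0 lower with Pum2 (0 also at an unadjusted p under 0.05; all genes 21.6% and 13.1%), and with IgG 1 was higher and 2 lower (all genes 8.25% and 9.72%). Whether probes of these relatives cross-hybridise was not tested.

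Upper-layer and callosal genes, whose factors oppose several deep-layer programmes, gave 1 higher and 1 lower of 10 against IgG (all genes 19.4% and 11.4%; median 0.07). Pou3f1, a POU-domain factor, was higher by 0.68 ± 0.08 (limma adjusted p = 2.15e-04), and Cux1, a homeodomain factor of upper-layer neurons, was lower at -0.82 ± 0.10 (adjusted p = 1.53e-04). Over input 5 were higher and 1 lower with Pum2 (all genes 21.6% and 13.1%; median 0.25), and 3 higher and 0 lower with IgG by limma (0 also at an unadjusted p under 0.05; all genes 8.25% and 9.72%; median 0.18).

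**Figure D4:**
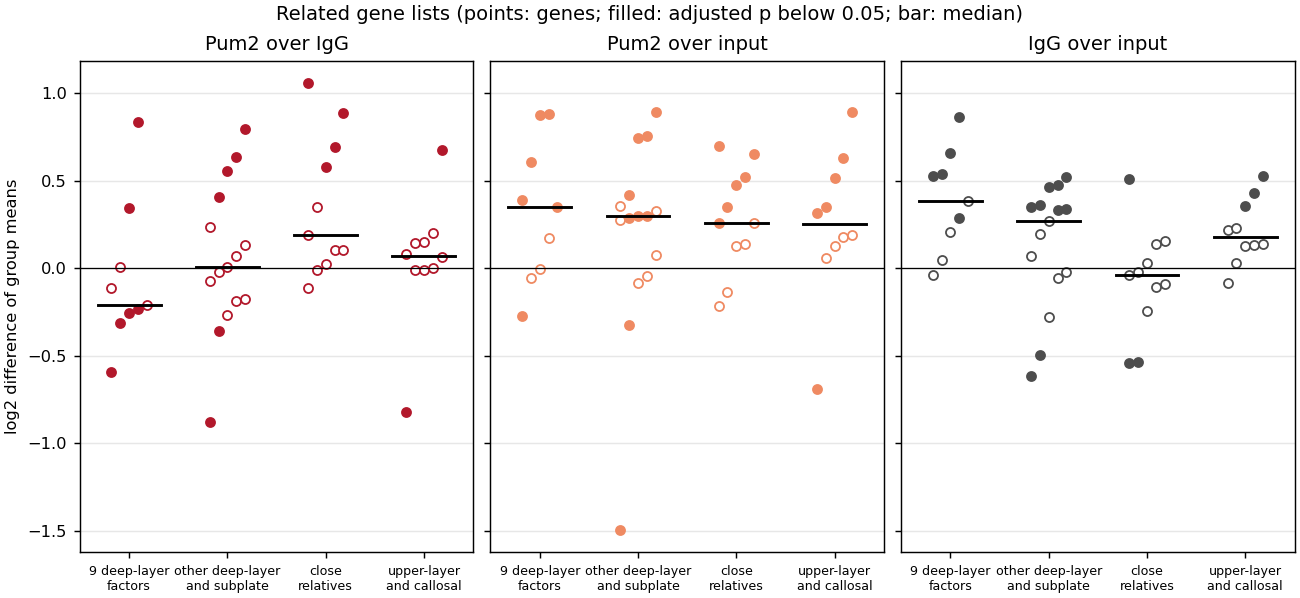
Log2 difference of group means (vertical axis) for the 9 factors, other deep-layer and subplate genes, close relatives and upper-layer genes in each of the 3 comparisons; points are genes, filled where the adjusted p is below 0.05, and bars are list medians. In Pum2 over IgG the medians are -0.21, 0.01, 0.19 and 0.07, with called genes on both sides of 0 in every list except the relatives, and in IgG over input the 9 factors have a median of 0.38.

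For each member the gene with the most similar profile over the 9 arrays was found among 10387 named genes at or above the median level, as the smallest root mean square distance after each profile was centred on its own mean. Bmpr1b, a receptor for bone morphogenetic proteins, was nearest to Lmo3, at a distance of 0.05 log2 units, with Pum2 over IgG and IgG over input differences of 0.85 and 0.13. Nbas was nearest to Tbr1 (0.05), with differences of 0.33 and 0.47. The nearest to Foxp2 was Ubn2 (0.07; -0.55 and 0.43), to Bcl11b Cttnbp2 (0.07; -0.16 and 0.85), to Sox5 Msl1 (0.06; -0.23 and 0.63) and to Fezf2 Tmem198b (0.04; -0.20 and -0.10). Those of Bcl11a, Foxp1 and Zfpm2 were Eif4a3l1, Peak1 and Polr2a, at 0.04, 0.04 and 0.09. The 9 arrays hold only 3 conditions.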

How the data were processed

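The deposited log2 values were made by the authors with RMA in Affymetrix Expression Console, per the submitters' processing notes, from Mouse Gene 2.0 ST arrays. RMA corrects background, normalizes arrays and summarises probes. Neither versions nor a genome build are given in the sources used here. Names came from the platform's probe table. Of 41345 features, 23521 carried 1 symbol, 1814 several and 16010 are unnamed here; the brightest row per gene left 22180 genes. All 9 members matched RefSeq gene names of GRCm38.p6 by Entrez identifier. Array number limits precision, and p-values reflect the spread between the arrays of a group, which the labels call biological replicates.

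One fit in limma 3.58.1 (R 4.3.3) held all 9 arrays in 3 groups, with 6 residual degrees of freedom and no replicate block. P-values were adjusted by Benjamini-Hochberg over all genes. The script was tested on simulated data. Paralog pairs were compared by exact permutation over arrays. All members were named, with up to 4 genes of each related list, by largest moderated t. Members and lists were chosen with earlier results of these data known. Deviations of same-numbered arrays from their group means correlated at 0.002 to 0.14, and the numbers were not taken to pair arrays. Differently numbered arrays were not compared in this way, so these correlations cannot decide whether arrays were paired. Alternatives were a replicate block, the compared groups alone, brighter genes alone, an intensity trend with a robust prior, 2 rescalings, mean rows, all features, and leaving out each array.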

Additional observations from a re-analysis of the deposited data

How the results depend on the processing

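Over 17 alternatives, 410 of 459 values of single members kept their direction and side of the threshold, 26 lost and 14 gained a call, and 9, none of them called, changed sign. Many of these directions could not change. The block, the compared groups alone, brighter genes alone, the trend and all features leave a difference itself as it was. Leaving out an array of a group not compared does so too, and only the call can then move. With the replicate number as a block, no member lost a call, and Zfpm2 in IgG over input passed (0.38, adjusted p = 0.0291). The block gave 6865, 7765 and 4026 calls over all genes for Pum2 over IgG, for Pum2 over input and for IgG over input, against 6815, 7688 and 3984 without it. The members higher in Pum2 over IgG numbered 1 (Lmo3) when quantile normalization was run again, and 2 without any 1 array. Those lower numbered 1 to 4 with 1 array left out, 3 with all features tested, and 5, Bcl11a added, with brighter genes alone, the intensity trend and both rescalings. In IgG over input 7 members were higher with brighter genes alone, the trend and quantile normalization. Of the members lower in Pum2 over IgG, Foxp2 and Sox5 remained without IgG replicate 2 or 3 or Pum2 replicate 3. Foxp2 alone remained there without Pum2 replicate 1. The share of calls over all genes that were higher in Pum2 over IgG was 63%, and 53.5% after quantile normalization or 46.9% with arrays centred on the brighter genes. In Pum2 over input it was 62.3%, and 52.2% with that centring. Zfpm2 in Pum2 over IgG changed sign after quantile normalization (-0.10), with that centring (-0.089) and without 1 array, IgG replicate 1, IgG replicate 2 or Pum2 replicate 3 (range with any 1 array left out -0.043 to 0.053). Sign changes near 0 were also seen for Bcl11a in Pum2 over input without Input replicate 3 or Pum2 replicate 3 (range -0.028 to 0.038), Fezf2 in IgG over input after quantile normalization (0.033) and Lmo3 in IgG over input without Input replicate 2 (range -0.0030 to 0.11). Zfpm2 in Pum2 over input also lost its call with the compared groups alone (0.39), both rescalings (0.33 and 0.32) and all features (0.39). The Bcl11a minus Bcl11b value in Pum2 over IgG ran from -0.018 to 0.10 with 1 array left out. The causes were not tested.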
